A study of Mus musculus with 6 samples.

Results

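The 3 arrays described here hold the RNA of fully differentiated primary fat cells from the mouse inguinal depot, a subcutaneous white fat, after 12 h with PBS. They are the control arrays among the 6 of the series, whose other 3 arrays carry cells given kynurenic acid and were not compared with them. All 6 are Affymetrix MoGene 2.0 ST arrays, in which short probes along the exons of a gene form a transcript cluster with 1 signal, given on a log2 scale. RNA was extracted with Isol reagent and converted to labelled sense-strand DNA with the WT Plus kit; the tissue label is white adipose tissue, and strain, sex and age are not given in the sources used here. Since the replicates are technical by title and no label ties them to different cultures or mice, every SD below may hold technical spread alone.

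Members were chosen by annotation: clusters of the category for ordinary genes, with probes annotated as matching 1 transcript only and 1 gene symbol, taking the brightest cluster where a gene had several. This left 25576 genes from 41345 clusters and control probe sets. Among the genes, 680 had several clusters, whose brightest and dimmest lay a median of 1.75 log2 apart, so the signal of a gene depends on which of its exons are probed. An order of clusters by signal is therefore no order of RNA amounts, and the classes below are described by how many of their genes stood above background.

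White adipocytes store triglyceride in a large lipid droplet. Insulin drives glucose uptake and fatty acid synthesis, lipases release fatty acids during fasting, and secreted adipokines report the state of the store to other tissues. Brown and beige adipocytes also store lipid, but their mitochondria carry uncoupling protein 1, Ucp1, which turns fuel into heat; inguinal fat of the mouse is a depot where beige cells can arise. PPARγ and C/EBPα, encoded by Pparg and Cebpa, maintain the adipocyte programme.

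Background was read from 23 antigenomic probe sets, 16943 probes whose sequences are absent from the mouse genome. These sets spanned a wide range of signal, and the 95th percentile rests on the brightest few. The GC content of probes was not used here, so genes were not set against background of like base composition, and its part in the classes below, the promoter comparison included, was not tested. The dimmest read 1.78, 1.74 and 1.86 log2 in arrays 1, 2 and 3, and the brightest read 6.83, 6.52 and 6.89. Their means were 3.76, 3.58 and 3.75 log2 and their 95th percentiles 6.81, 6.49 and 6.83, so array 2 had the lowest background by each of these measures. A gene is called above background when it exceeded the 95th percentile in all 3 arrays, and below background when it lay under the mean in all 3. Between these classes a gene is called undecided.

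Of the 25576 genes, 4119 (16.1%) were above background, 12523 (49%) were undecided and 8934 (34.9%) were below. The 95th percentile is a strict line: 14921 genes (58.3%) exceeded the antigenomic mean in all 3 arrays. Gene means ran from 1.73 log2 for Olfr813, an olfactory receptor gene, to 12.93 for ND4L, with a median of 4.25. The brightest 5% of genes, 1280 in number, began at 8.41. Control probe sets placed the line as follows. All 25 sets for ribosomal RNA lay above it, as did 58.9% of 1352 sets for exons of control genes, but only 1.33% of 5331 sets for introns.

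**Figure D1:**
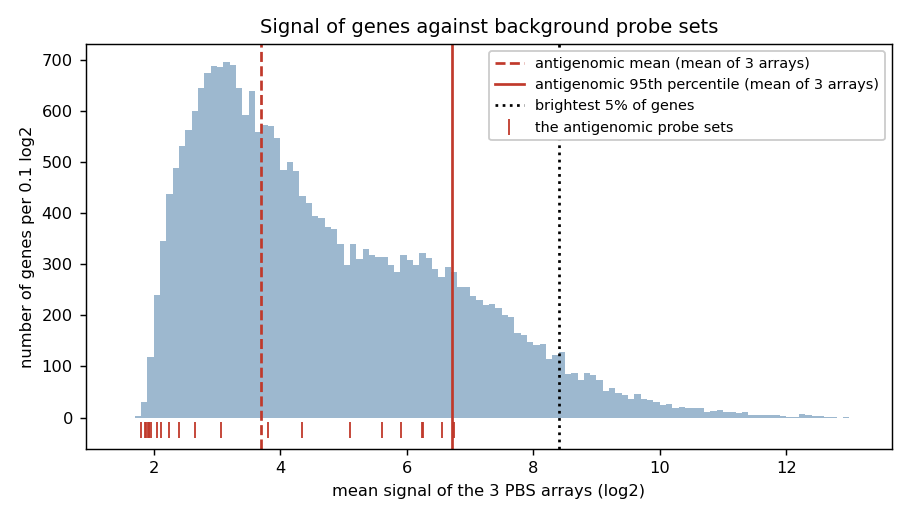
Histogram of the mean signal of 25576 genes over the 3 PBS arrays (x axis, log2) with the number of genes per bin of 0.1 log2 (y axis). Red ticks under the axis are the 23 antigenomic probe sets, the dashed and solid red lines their mean and 95th percentile, and the dotted line the start of the brightest 5% at 8.41; most genes lie left of the solid line.

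The 3 arrays resembled each other closely. Pearson correlations across genes, which are not independent replicates, were between 0.995 and 0.996 for the 3 pairs of arrays, and the median SD over the 3 arrays was 0.07 log2 among genes above background. Only 6 of the 4119 genes (0.146%) differed by 1 log2 or more between arrays. These 6 were Rtp4, Iigp1, Gbp7, Isg15, Snord61 and Gm10722; the last 2 were named after their values were seen.

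Adipocyte identity was checked with 19 measured markers, of which 17 (89.5%) were above background and 16 (84.2%) among the brightest 5%. Retn, which encodes the hormone resistin, read 12.58, 12.56 and 12.61 log2 in arrays 1, 2 and 3. Fabp4, the fatty acid carrier of adipocyte cytosol, read 12.53, 12.58 and 12.52. Cfd, the complement protease also called adipsin, read 11.16, 11.06 and 11.17. Each of these genes varied by less than 0.2 log2 and stood far over the background line of every array.

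The central transcription factors were present too. Pparg had a mean of 10.53 ± 0.05 log2 (SD, n = 3) and Cebpa of 9.06 ± 0.09. Adipoq, which encodes adiponectin, read 9.62, 9.70 and 9.59, and Plin1, the coat protein of the large lipid droplet, 9.43, 9.31 and 9.23. The insulin-regulated glucose transporter Slc2a4 had a mean of 9.48 ± 0.13. The 2 markers that missed the line were Lep, which encodes leptin (6.65, 6.78 and 6.87 log2), and Pck1, the enzyme of glyceroneogenesis (4.24, 4.30 and 4.44). Lep passed the line in arrays 2 and 3 but not in array 1, while Pck1 stayed more than 2 log2 under it in all 3 arrays.

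Proteins secreted by fat formed a mixed list: 16 of 29 were above background and 13 among the brightest 5%. Beside Retn, high members of the list were the haemoglobin scavenger haptoglobin (Hp, 12.05 ± 0.04 log2) and complement C3 (11.27 ± 0.05). At the other end, Il6 (4.32 ± 0.15), the serpin vaspin (Serpina12, 2.91 ± 0.05) and the resistin relative Retnla (2.87 ± 0.14) were undecided or below. Lep and Retnla thus stood apart from Retn, Cfd and Adipoq on the same list.

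Transcription factors of adipogenesis were above background in 10 of 22 cases. Pparg was followed by Ebf1, an early B cell factor that also acts in fat (9.87 ± 0.02), Cebpa and the carbohydrate-responsive factor Mlxipl (9.03 ± 0.07). The members with the lowest signal were Klf5 (4.31 ± 0.09), an early factor of differentiation, and the anti-adipogenic factors Gata3 (3.72 ± 0.04) and Gata2 (3.53 ± 0.05). Gata2 was the only member under the antigenomic mean in all 3 arrays.

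**Figure D2:**
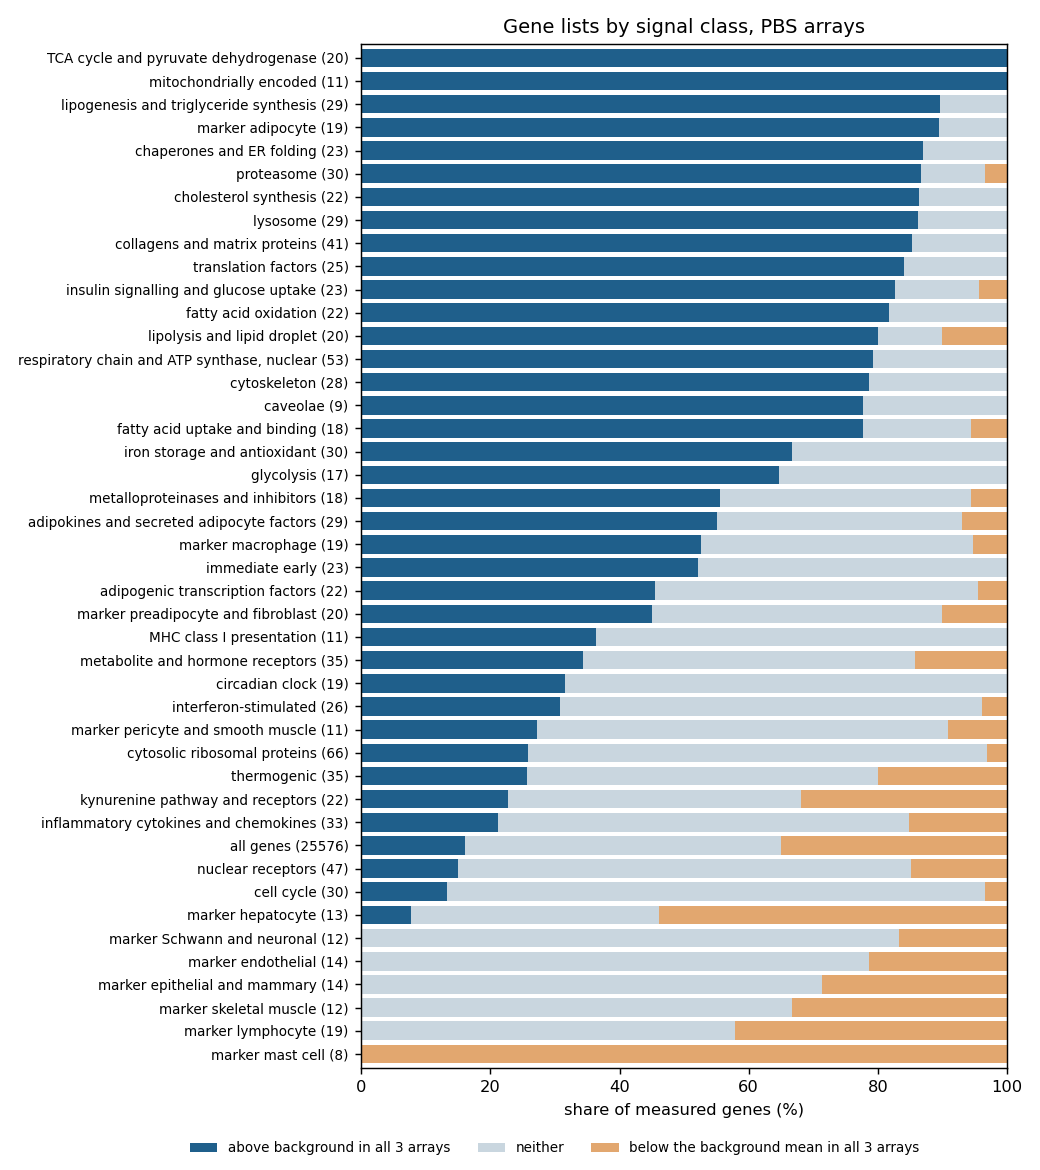
Share of measured genes (x axis, %) in each gene list, with the number of genes in brackets, that was above background in all 3 PBS arrays (dark), undecided (light, labelled neither) or under the background mean in all 3 (orange). The TCA cycle and mitochondrially encoded lists are wholly dark, all genes show 16.1% dark, and the mast cell list is wholly orange.

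Car3, a carbonic anhydrase abundant in fat and muscle, was the brightest nuclear gene, at 12.59, 12.68 and 12.62 log2. Lipid synthesis was among the classes with most genes over the line. Of 29 genes of fatty acid and triglyceride synthesis, 26 (89.7%) were above background and 23 (79.3%) among the brightest 5%, where all genes gave 5%. Scd1, the desaturase that makes oleate, read 12.59, 12.60 and 12.59 log2. Acly, which makes cytosolic acetyl-CoA from citrate, read 12.47, 12.35 and 12.41. The NADPH source Me1 had a mean of 12.36 ± 0.04, the second desaturase Scd2 of 12.29 ± 0.02 and fatty acid synthase, Fasn, of 12.28 ± 0.04. All of them were among the 20 brightest genes of the arrays. The members under the line were Lpin2 (5.68 ± 0.19), Mogat1 (4.40 ± 0.06) and Pck1.

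Uptake and binding of fatty acids gave 14 of 18 genes above background. Lipoprotein lipase, Lpl, which frees fatty acids from circulating triglyceride, had a mean of 11.80 ± 0.05 log2, the fatty acid translocase Cd36 of 11.53 ± 0.06 and the acyl-CoA synthetase Acsl1 of 10.62 ± 0.07. Gpihbp1, which holds Lpl on capillary endothelium, was undecided at 4.56 ± 0.06, and Slc27a4, a transporter of the same family as Slc27a1, read 6.01 ± 0.03. Slc27a2 was the only member below background (3.09 ± 0.10). Its cluster lies on the opposite strand, overlaps only 1.81% of that gene in RefSeq and may not measure it.

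Lipolysis and the lipid droplet gave 16 of 20 above background. The triglyceride lipase Pnpla2 (11.33 ± 0.03 log2), the droplet coat Plin2 (10.81 ± 0.06) and Cidec (10.19 ± 0.06), which joins small droplets into large ones, led the list. Its relative Cidea, a marker of brown and beige cells, read 3.42, 3.35 and 3.57, and Cideb, the liver member of the family, 3.25, 3.38 and 3.49. Both lay below the antigenomic mean in all 3 arrays, against Cidec at more than 10 log2, although these are different clusters with different probes. Adrb3, the β3-adrenergic receptor that starts lipolysis in mouse fat cells, was just above the line at 6.88, 6.97 and 6.91.

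Insulin signalling and glucose uptake gave 19 of 23 genes above background, a count that includes Pdk1 (8.43 ± 0.04 log2), a pyruvate dehydrogenase kinase gene. Pik3r1, the regulatory subunit of PI3 kinase, had a mean of 10.22 ± 0.08 log2 and the insulin-activated phosphodiesterase Pde3b of 9.93 ± 0.03. The adaptor Grb14 (5.33 ± 0.01) and the phosphatase Ptpn1 (5.39 ± 0.10) were undecided. Tbc1d1, at 3.28 ± 0.15, has a cluster on the opposite strand of the RefSeq gene. Caveolae, the membrane pits that are dense in adipocytes, gave 7 of 9, led by Ehd2 (10.57 ± 0.06), Cav1 (10.38 ± 0.06), Cav2 (8.89 ± 0.11) and Prkcdbp (8.60 ± 0.12). The muscle forms Murc (3.67 ± 0.04) and Cav3 (3.65 ± 0.04) were the 2 that did not pass.

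Mitochondrial metabolism was the other large class. All 11 genes of the list of mitochondrially encoded RNAs were above background and among the brightest 5%, and they held 9 of the 20 brightest places. ND4L read 12.91, 12.97 and 12.92 log2, over a cluster that runs on into the neighbouring ND4 in the textbook map of the mitochondrial genome. The ribosomal RNA mt-Rnr1 read 12.75, 12.79 and 12.78, and COX1, a core subunit of cytochrome oxidase, 12.76, 12.77 and 12.77. ND6 had the lowest mean of the list (10.54, 10.03 and 10.26), and it is the only protein-coding gene on the light strand of that genome. All 15 measured mitochondrial tRNA genes were above background as well, with means from 8.25 for mt-Tp to 11.98 for mt-Tv. ATP6 is absent from these counts because the only cluster with its symbol is annotated as matching several transcripts and lies on chromosome 1; that cluster read 12.39 ± 0.04.

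Every one of 20 genes of the TCA cycle and pyruvate dehydrogenase was above background, and 18 (90%) were among the brightest 5%. The isocitrate dehydrogenase subunits Idh3b (11.38 ± 0.05 log2) and Idh3g (11.27 ± 0.03) and citrate synthase, Cs (11.18 ± 0.04), led, and even the dimmest member, Pdhx, read 8.28, 8.48 and 8.36. Nuclear genes of the respiratory chain and ATP synthase gave 42 of 53, of which 35 (66.0%) were among the brightest 5%. Cox6a1 (12.47 ± 0.03), Atp5b (12.10 ± 0.01), Ndufb9 (11.55 ± 0.07) and Atp5a1 (11.24 ± 0.03) led them. The 3 lowest, Atp5g1 (4.58 ± 0.07), Uqcrb (4.27 ± 0.15) and Cox5b (3.89 ± 0.33), were undecided. Counted among the brightest 5% are clusters that may not measure their gene. Those named Cox6c (mean 10.67), Cycs (10.04) and Cox7b (9.90) lie elsewhere than their RefSeq gene, and that of Atp5d (9.03) lies on the opposite strand.

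Fatty acid oxidation gave 18 of 22 above background, led by the dehydrogenases Acadm (10.64 ± 0.05 log2), Hadh (10.64 ± 0.04) and Hadha (10.49 ± 0.01) and the thioesterase Acot2 (10.47 ± 0.02). Hadhb, the partner subunit of Hadha, was undecided at 5.17 ± 0.15, as were Cpt1a, the liver form of the carnitine transferase (6.53 ± 0.09), and Acaa1a (6.22 ± 0.06). The clusters named for subunits of 1 enzyme thus lay on different sides of the line, which gives no order of their RNA amounts.

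On the list of thermogenic genes 9 of 35 (25.7%) were above background and 7 (20%) below, beside 16.1% and 34.9% of all genes, and 1 was among the brightest 5%. Ucp1 read 3.34, 3.45 and 3.32 log2, under the antigenomic mean of each array by less than 0.5 log2. Zic1, a brown fat marker, read 3.15, 3.09 and 3.02, and Pm20d1, a secreted enzyme of beige cells, 3.26, 2.96 and 2.82. Ckmt2, the mitochondrial creatine kinase of striated muscle, was lowest at 2.81 ± 0.15.

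The thermogenic genes over the line were led by Cox7a1, a subunit form of cytochrome oxidase in oxidative tissues (9.25, 9.16 and 9.31 log2), and the fatty acid elongase Elovl3 (8.34, 7.84 and 8.32). The creatine transporter Slc6a8 (8.12 ± 0.04) and the cytosolic creatine kinase Ckb (7.95 ± 0.18) followed. Of 3 regulators named here after their values were seen, the coactivator Ppargc1a was above background (7.11, 7.22 and 7.19), Prdm16 was undecided (5.17, 5.22 and 5.02) and the deiodinase Dio2 was undecided (3.51, 3.74 and 3.65). Since the RNA came from a whole culture, few cells with a transcript and little of it in every cell cannot be told apart for these or any other genes here.

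Glycolysis gave 11 of 17 genes above background. Gpi1 (12.24 ± 0.03 log2), pyruvate kinase Pkm (11.67 ± 0.05), Pgk1 (11.51 ± 0.06) and Pfkp (9.66 ± 0.06) led, whereas Eno1 (5.40 ± 0.19) and Pfkm, the muscle phosphofructokinase (5.76 ± 0.08), were undecided. Gapdh, which is used as a reference gene in most tissues, read only 4.64, 3.72 and 3.85 in its single cluster of 12 specific probes. Another cluster with its symbol, of 27 probes annotated as matching several transcripts, read 12.45, 12.48 and 12.46. The other reference genes, Actb (9.52, 9.44 and 9.36) and Hprt (8.79, 8.95 and 8.59), were above background with specific probes.

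The choice of specific probes touched other gene classes with many pseudogenes. Of the cytosolic ribosomal proteins, 17 of 66 were above background with specific probes, against 35 of 74 when clusters of any annotation were allowed. The antioxidant Prdx1 read 4.71 with specific probes and 10.45 ± 0.08 in the other kind. Atp5h read 4.78 and 11.02 ± 0.04, and Rpl41 5.01 and 10.69 ± 0.02. Over all genes the same step moved the count less, from 4119 of 25576 to 4507 of 27293. The specific ribosomal and Gapdh values are therefore given as values of their clusters only.

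Position added a second limit. Of 19457 protein-coding genes matched to RefSeq, 19254 had a cluster that covered at least 10% of the gene on its strand. Among the 17 ribosomal protein genes above background only 10 did so. Rpl13a (11.81, 11.60 and 11.94 log2) rests on 83 bases inside the gene that coincide with Snord32a, and Rps3 (10.28, 9.83 and 10.56) on 145 bases that coincide with Snord15b. Small nucleolar RNAs, which guide the chemical modification of ribosomal RNA, lie in introns of such host genes. Rpl4 (11.30 ± 0.08) and Rpl38 (10.09 ± 0.03) were the 2 highest members measured over the gene itself. The lowest were Rps28 (3.44 ± 0.08), Rps15 (3.20 ± 0.36) and Rpl35 (2.70 ± 0.04).

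Translation factors gave 21 of 25 above background, led by Eef2 (10.88 ± 0.06 log2), Eif4g2 (10.79 ± 0.06), Eef1b2 and Eif3a (9.80 ± 0.06). Mitochondrial ribosomal proteins gave 41 of 74. Protein quality control was also broadly represented. Chaperones gave 20 of 23, with Hspa9 (11.49 ± 0.05), Hspa8 (11.44 ± 0.03), Hsp90b1 (11.18 ± 0.05) and Calr (11.17) highest and the heat-inducible Hspa1a lowest (5.58 ± 0.13). The proteasome gave 26 of 30, from Psma3 (9.59 ± 0.05) down to Psma5 (2.79 ± 0.22), the only member below background. Psmb8, Psmb9 and Psmb3 were undecided, the immunoproteasome subunit Psmb9 at 5.58 ± 0.08.

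Lysosomal genes gave 25 of 29, led by the proteases Ctsb (12.20 ± 0.05 log2) and Ctsd (11.70 ± 0.03) and the lipid-handling proteins Npc2 (11.09 ± 0.01) and Psap (10.96 ± 0.04); the bone and fibroblast protease Ctsk fell just short (6.69 ± 0.12). Iron storage and antioxidant genes gave 20 of 30. Fth1, the ferritin heavy chain, read 12.31 in each of the 3 arrays, catalase, Cat, 11.57 ± 0.04, and the superoxide dismutases Sod1 and Sod2 10.50 ± 0.02 and 10.43 ± 0.10. Hmox1 (9.62 ± 0.14), Gclm (8.58 ± 0.04), Txnrd1 (7.66 ± 0.09) and Gclc (6.94 ± 0.09) were above background too. Nqo1 (5.54 ± 0.12) and the cystine transporter Slc7a11 (4.47 ± 0.03) were undecided.

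Cholesterol synthesis gave 19 of 22. Insig1, which holds the sterol sensor in the endoplasmic reticulum, had a mean of 11.43 ± 0.05 log2, followed by the enzymes Sc5d (10.95 ± 0.09), Nsdhl (10.58 ± 0.10) and Hmgcs1 (10.10 ± 0.06). Stard4, a sterol carrier (6.69 ± 0.02), and the kinase Mvk (6.64 ± 0.17) were undecided. No member was below background.

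Matrix genes formed a class nearly as complete as lipid synthesis. Of 41 genes, 35 (85.4%) were above background and 28 (68.3%) among the brightest 5%. The proteoglycan Bgn read 12.37, 12.40 and 12.42 log2, fibronectin, Fn1, had a mean of 11.64 ± 0.03, Thbs1 of 11.46 ± 0.09 and the collagen cross-linking enzyme Lox of 11.28 ± 0.01. Elastin, Eln (4.51 ± 0.05), Col14a1 (4.13 ± 0.09) and the proteoglycan Lum (4.10 ± 0.08) were undecided. Metalloproteinases and their inhibitors gave 10 of 18, led by Timp1 (9.50 ± 0.07), Timp2 (9.18 ± 0.02) and Mmp14 (8.83 ± 0.05). Timp4, an inhibitor known from mature adipocytes, was undecided at 4.31 ± 0.26, and Mmp13 was below (3.46 ± 0.19).

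Markers of other cell types were read in the same way. Fibroblast and preadipocyte markers gave 9 of 20 (45%) above background, beside 16.1% of all genes. Dcn (11.14 ± 0.02 log2), Col1a1 (10.51 ± 0.11), Pdgfra (10.01, 10.04 and 9.98) and the matrix protein gene Dpt were highest. Dlk1, the preadipocyte factor that falls during differentiation, was undecided at 6.05, 6.08 and 6.21, and the progenitor markers Wnt10b (3.37 ± 0.10) and Dpp4 (3.06 ± 0.15) were below. Col3a1, Pdgfrb, S100a4, Sfrp2 and Thy1 were above background too, and the matrix gene Lum was undecided.

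Macrophage markers gave 10 of 19 (52.6%), beside 16.1% of all genes, with 4 among the brightest 5%. Lyz2, lysozyme of myeloid cells, read 10.62, 10.59 and 10.54 log2. Cd68 read 9.85, 9.78 and 9.69, and the complement component C1qb 9.59, 9.48 and 9.42. Fcer1g, Mrc1, C1qa, Mpeg1, Emr1, which encodes the F4/80 antigen, Csf1r and C1qc were above background as well, with means from 7.03 ± 0.09 to 8.57 ± 0.13. The common leukocyte marker Ptprc was undecided at 5.86, 5.94 and 5.30. Itgax, a marker of dendritic cells and inflamed fat, was the only member below background (3.38 ± 0.13).

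The counts that follow stand beside 16.1% of all genes, and the lists are short. Smooth muscle and pericyte markers gave 3 of 11 (27.3%): Acta2, which cultured fibroblasts also express (10.28 ± 0.14 log2), Mcam (7.74 ± 0.08) and Tagln (7.51 ± 0.14). The pericyte marker Rgs5 was below background (3.11 ± 0.40). None of 14 endothelial markers was above background, Pecam1 reading 3.98, 4.03 and 3.98, and the highest was Eng at 6.52 ± 0.10. Lymphocyte markers gave 0 of 19, the highest being Nkg7 at 4.82 ± 0.17, skeletal muscle markers 0 of 12, epithelial and mammary markers 0 of 14, and Schwann and neuronal markers 0 of 12. All 8 mast cell markers were below background, with Kit highest at 3.50 ± 0.03. Hepatocyte markers gave 1 of 13 (7.69%), Cyp2e1 (7.05, 7.10 and 7.30), with Alb below at 3.01, 3.19 and 3.15.

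**Figure D3:**
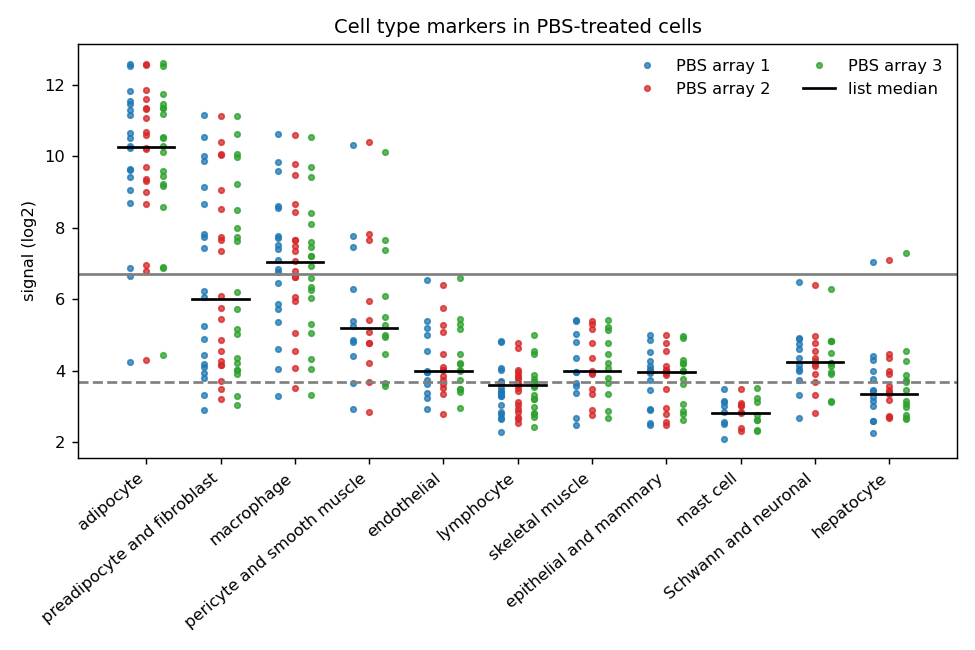
Signal of each marker gene (y axis, log2) in PBS arrays 1, 2 and 3, by cell type list (x axis); black bars are list medians, and the solid and dashed grey lines are the 95th percentile and the mean of the background probe sets, averaged over the arrays. Adipocyte markers have a median of 10.26, macrophage markers of 7.03 and preadipocyte and fibroblast markers of 6.01, while the mast cell, lymphocyte and hepatocyte medians lie under the dashed line.

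The chromosomes gave a check that the labels do not. The Y-linked gene Ddx3y read 8.66, 8.74 and 8.62 log2, Eif2s3y 7.36, 7.74 and 7.77 and Uty 7.18, 7.20 and 6.97, all above background in each array. Xist, the RNA that coats the inactive X chromosome of female cells, was below background at 3.15, 2.89 and 3.25. These 4 genes were chosen after their values were seen, and no array differed from the others in this respect.

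Receptors and signalling genes were less complete than metabolic ones. Of 35 receptors for metabolites and hormones 12 (34.3%) were above background, beside 16.1% of all genes. The adiponectin receptor Adipor2 led (10.57 ± 0.06 log2), with Egfr (9.28 ± 0.03), the thyrotropin receptor Tshr (8.96 ± 0.08) and the growth hormone receptor Ghr (8.93 ± 0.07). The leptin receptor Lepr was lowest (2.55 ± 0.21), with the melanocortin receptor Mc4r (2.83 ± 0.12) and the short-chain fatty acid receptor Ffar3 (2.87 ± 0.11) also below background. Nuclear receptors gave 7 of 47 (14.9%), beside 16.1% of all genes. After Pparg these were led by the glucocorticoid receptor Nr3c1 (8.69 ± 0.03), the clock repressor Nr1d1 (8.17 ± 0.01) and the oxysterol receptor Nr1h2 (8.17 ± 0.05). The liver and gut receptors Nr1h4 (2.96 ± 0.07) and Nr1i2 (2.81 ± 0.09) were below.

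A list on kynurenine, the tryptophan product from which kynurenic acid is made, held enzymes, transporters, receptors and genes of serotonin synthesis. Of its 22 measured genes 5 (22.7%) were above background and 7 (31.8%) below, beside 16.1% and 34.9% of all genes. The genes over the line were led by Got2, a mitochondrial transaminase with other main tasks (9.10 ± 0.02 log2), the amino acid transporter chain Slc3a2 (8.73 ± 0.06), Arnt (8.21 ± 0.02), the partner of the aryl hydrocarbon receptor, and the transporter Slc7a8 (7.97 ± 0.22), so that Got2 was the only enzyme of the pathway among the 5, the last being the transporter Slc7a5. The tryptophan dioxygenase Tdo2 (2.69 ± 0.15), the aminotransferase Aadat (2.61 ± 0.17) and kynureninase, Kynu (2.60 ± 0.14), were below background. Gpr35 and Ahr, the receptors on this list that are described for kynurenic acid, were undecided. Gpr35 read 5.36, 5.07 and 5.02, and Ahr 6.04, 6.15 and 6.27 over 30 specific probes. A further Ahr cluster of 4 probes annotated as matching several transcripts read 9.47, 9.45 and 9.61.

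On the cell cycle list 4 of 30 genes (13.3%) were above background, beside 16.1% of all genes, namely Ccnd2 (9.71 ± 0.04 log2), Pcna (8.11 ± 0.17), Ccnd1 (8.03 ± 0.08) and Rrm1 (7.61 ± 0.09). The mitotic genes Bub1 (3.75 ± 0.14) and Cenpf (3.69 ± 0.02) were undecided, and Birc5 was below (2.98 ± 0.05). Immediate early genes gave 12 of 23 (52.2%) with none below, from Klf6 (8.89 ± 0.01), the phosphatase Dusp1 (8.63 ± 0.06), Jun (8.41 ± 0.10) and Fosl1 (8.25 ± 0.10) down to Fosb (4.39 ± 0.10) and Nr4a3 (3.97 ± 0.05).

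Inflammatory cytokines and chemokines gave 7 of 33 (21.2%), beside 16.1% of all genes. Csf1, the growth factor of macrophages, led at 10.37, 10.31 and 10.34 log2, before the chemokines Cxcl12 (8.54 ± 0.05), Cxcl13 (8.25 ± 0.07) and Ccl9 (7.84 ± 0.16). Cxcl2 (2.78 ± 0.20), Il10 (2.67 ± 0.04) and Csf2 (2.37 ± 0.14) were below background. The circadian clock gave 6 of 19 (31.6%), beside the same 16.1%. It was led by the repressor Bhlhe40 (9.67 ± 0.09), Clock (8.97 ± 0.14), Nr1d1 and Dbp (7.98 ± 0.08), with Cry1 lowest (4.63 ± 0.04). Antigen presentation by MHC class I gave 4 of 11, beside that 16.1% of all genes. B2m was bright (12.00 ± 0.09), whereas the classical heavy chain gene H2-D1 read 4.65 ± 0.02 with specific probes in a family of near-identical copies, so its value is uncertain.

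The cytoskeleton list gave 22 of 28, led by vimentin, Vim (11.73 ± 0.08 log2), the galectin Lgals1 (11.60 ± 0.06) and Tubb5 (10.71 ± 0.04). Myl6 (4.74 ± 0.27) and Tmsb10 (4.90 ± 0.12) were undecided, and 3 members, Actg1, Myl12a and Tuba1b, are measured on the opposite strand of their RefSeq gene.

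Whole gene families gave the floor of the arrays. None of 1010 olfactory receptor genes was above background and 919 (91.0%) were below, with a family median of 2.47 log2. None of 219 vomeronasal receptor genes and none of 46 bitter taste and trace amine receptor genes passed either. Zinc finger genes of the Zfp family gave 23 of 352 (6.53%) and collagen genes 13 of 44 (29.5%), beside 16.1% of all genes. Solute carriers, with 65 of 370 (17.6%), were near that share. Of long noncoding RNAs, 13 of 2213 were above background, the brightest being Malat1, a nuclear RNA named after its value was seen, at a mean of 11.73. This compared with 3979 of 19457 protein-coding genes (20.5%).

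Among 377 microRNA precursor genes, 3 were above background. Their sequences are shown because the array reads the hairpin and not the mature form, so that a level says nothing of which arm is made. For the other 2, the mature sequences in RefSeq (GRCm38.p6) are given from 5′ to 3′ with the seed, bases 2 to 8, in capitals, after the hairpin of Mir5099, for which no mature form was in the table used.
Mir5099 hairpin, chr12:36816205-36816278, plus strand: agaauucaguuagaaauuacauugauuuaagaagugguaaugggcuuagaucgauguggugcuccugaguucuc
mmu-miR-3058-5p: uCAGCCACggcuuaccuggaaga
mmu-miR-3058-3p: uUCCUGUCagccgugggugcc
mmu-miR-673-5p: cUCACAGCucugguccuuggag
mmu-miR-673-3p: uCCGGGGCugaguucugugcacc

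The Mir5099 hairpin read 12.24, 12.23 and 12.23 log2, among the brightest 5% of genes. Mir3058 read 7.51, 7.45 and 7.27, and Mir673 6.88, 7.09 and 6.87. No seed was shared between the 4 mature sequences. The host transcript Mir22hg, a long noncoding RNA, was also above background with a mean of 7.80 ± 0.03, and it was chosen after its values were seen.

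Of 45 genes that the array names as small nucleolar RNAs, 23 (51.1%) were above background and 15 among the brightest 5%. Snora33 read 11.38, 11.16 and 11.57 log2, over a cluster that RefSeq names Snord100, and Snord82 read 10.88, 10.75 and 11.01. Snord87 read 10.71, 10.33 and 10.77, and all 3 were chosen after their values were seen. In each of these genes array 2 was lowest and array 3 highest.

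That order held widely over the small nucleolar loci. RefSeq positions identified 485 clusters of at most 350 bases over such a gene, whatever symbol the array gave them, and 60 of them (12.4%) were above background, a lower share than among the 45 named genes and than the 16.1% of all genes. Array 2 was the lowest of the 3 in 58 of the 60 (96.7%), with median deviations from the mean of the 3 arrays of 0.04, -0.31 and 0.27 log2 in arrays 1, 2 and 3. It was lowest in all 22 clusters with a small nucleolar symbol, in 22 of 23 with the symbol of a host or another gene, among them Rpl13a, Rps3 and Nop56, and in 14 of 15 without a symbol. Other short clusters above background had array 2 lowest in 19 of 46, and all genes above background in 1271 of 4119 (30.9%). The pattern was looked for after the first values were seen. The bright antigenomic sets were lower in array 2 as well, by about 0.3 log2 at the 95th percentile (6.49 against 6.81 and 6.83), and their part in the result was not tested.

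Interferon-stimulated genes moved between the arrays in the other direction. Of 26 genes, 8 (30.8%) were above background in all 3 arrays, beside 16.1% of all genes. On this list 24 of the 26 were highest in array 2, against 8658 of 25576 genes overall (33.9%). Their median deviations were -0.17, 0.43 and -0.28 log2. Rtp4, which helps receptors to the cell surface, read 7.69, 8.70 and 7.53, over a cluster that covers only 4.58% of its RefSeq gene. Isg15, a ubiquitin-like modifier, read 7.03, 7.95 and 6.93, and Oasl2 7.12, 7.90 and 6.94. The widest ranges on the list were those of 2 undecided members, named here for that range. Rsad2 read 5.23, 6.76 and 4.66, and Ifit1 6.90, 8.58 and 6.69. The signal factor Stat2 (mean 7.51 ± 0.44) was also highest in array 2.

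Other genes among the 15 above background with the widest range, chosen for that range and on no list of this response, were also highest in array 2. Iigp1, an immunity-related GTPase, read 7.75, 8.86 and 7.72 log2, Gbp7, a guanylate-binding protein, 7.36, 8.03 and 6.94, and Ifi205 8.95, 9.75 and 9.20. Zbp1 read 6.89, 7.60 and 6.89 and Sp100 7.26, 7.78 and 7.08. The RNA sensor Ifih1, which is on the interferon list, read 7.36, 7.85 and 7.08. Exceptions on that list were Oas3, highest in array 1, and Oas1a, highest in array 3, and Mx1 was below background in all arrays (2.63, 3.05 and 2.48). Without array 2 only 1 gene above background, in place of 6, differed by 1 log2 or more.

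Macrophage markers did not follow that order. They were highest in array 1 in 13 of 19 cases and lowest in array 3 in 15 of 19, with median deviations of 0.09, 0.03 and -0.10 log2. By contrast, Ms4a6d, a gene of macrophages among the 15 widest and not on the marker list, did follow the interferon order. It read 7.43, 7.87 and 6.97. Adipocyte markers had median deviations of 0.00, 0.00 and -0.03. As single arrays have no replicates, these differences between arrays carry no test.

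**Figure D4:**
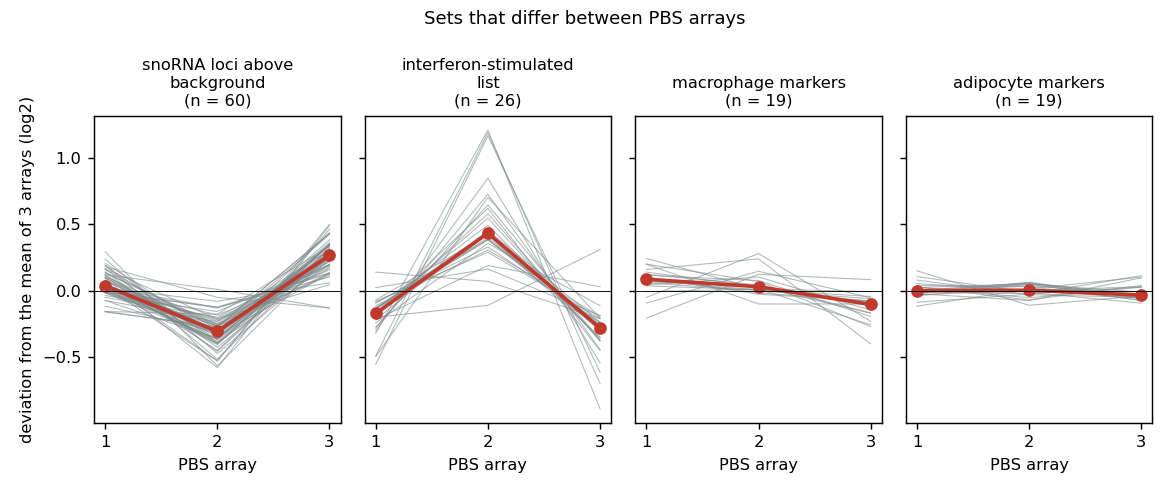
Deviation of each cluster or gene from its mean over the 3 arrays (y axis, log2) in PBS arrays 1, 2 and 3 (x axis); thin lines are single clusters or genes and the red line is the median. The 60 small nucleolar loci dip in array 2 (median -0.31), the 26 interferon-stimulated genes peak there (median 0.43), and the 19 macrophage and 19 adipocyte markers stay near 0.

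Signal class was finally set against promoter sequence, a property that the choice of genes did not use. Promoters were used of 12949 protein-coding genes with a single promoter in the RefSeq table (GRCm38.p6). Genes with several were left out. Of protein-coding genes above background 2622 of 3979 remained, and of those below 3862 of 5269. Motifs were searched in the 250 bases before the start. The CpG ratio was taken over these and the 50 bases after the start. CpG islands, stretches in which the dinucleotide CG has not been depleted, mark promoters of widely used genes. An observed to expected CpG ratio of 0.6 or more was found in 51.7% of all promoters, in 82.3% of those of genes above background, in 60.9% of the undecided and in 15.7% of those below. The letters TATAAA, in the window from 45 to 16 bases before the start and on the gene's strand, stood in 3.21% of all, 1.53% of genes above background and 6.21% of genes below. The motif GGGCGG on either strand stood in 45.9%, 66.2% and 18.0%, and CCAAT on either strand in about the same share of each class (36.3%, 36.4% and 36.6%). These shares describe the letters in the window and show no binding.

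**Figure D5:**
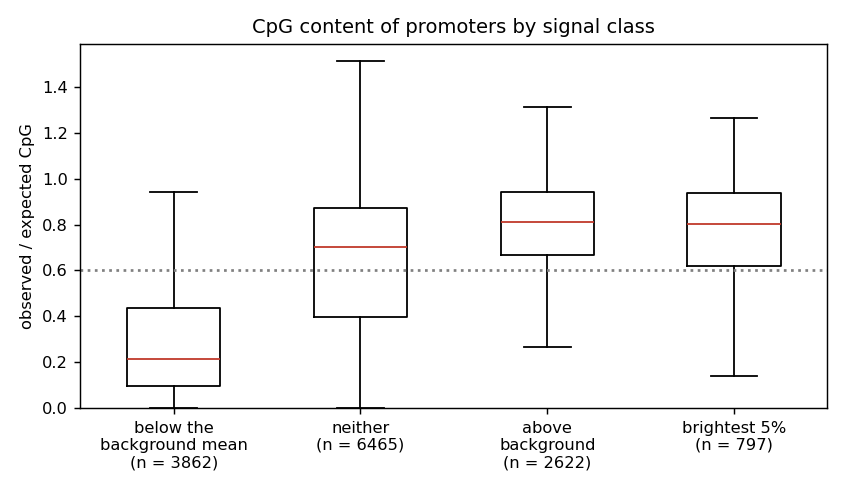
Observed to expected CpG ratio of promoters (y axis) by signal class of the gene (x axis), with the number of promoters in brackets; boxes are quartiles with the median in red, whiskers reach the most extreme value within 1.5 box lengths, points beyond are not drawn, and the dotted line is 0.6. Medians are 0.21 for genes below background, 0.70 for undecided genes and 0.81 for genes above.

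Gene lists differed in this property, counted over all their members with a single promoter, whatever their signal class. Of the promoters of the respiratory chain list 35 of 38 reached a CpG ratio of 0.6, of the TCA cycle 14 of 16 and of translation factors 16 of 16. Of the adipokine list only 3 of 19 did, and 5 of 19 held TATAAA; of lipolysis and lipid droplet genes 2 of 13 and of macrophage markers 0 of 13 reached 0.6. In cholesterol synthesis 12 of 12 promoters held GGGCGG and 12 of 12 held CCAAT, beside 45.9% and 36.3% of all promoters. Among the cell cycle list 20 of 23 held CCAAT although most of its genes were not above background.

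The 120 bases before the start are shown for 4 genes of adipocyte identity and for 3 enzymes, all among the brightest 5%, so that the difference in CG content can be read. They are from RefSeq (GRCm38.p6), 5′ to 3′ on the gene's strand. Capitals mark CCAAT (in reverse ATTGG), the motif GGGCGG (in reverse CCGCCC) and the letters TATAAA, which none of the 7 holds here.
Adipoq, chr16:23146416-23146535, plus strand: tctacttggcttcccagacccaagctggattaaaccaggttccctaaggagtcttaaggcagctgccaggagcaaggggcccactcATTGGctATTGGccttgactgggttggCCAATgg
Retn, chr8:3655650-3655769, plus strand: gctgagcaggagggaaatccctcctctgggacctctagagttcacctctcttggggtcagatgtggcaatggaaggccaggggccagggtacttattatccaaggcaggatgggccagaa
Cfd, chr10:79890733-79890852, plus strand: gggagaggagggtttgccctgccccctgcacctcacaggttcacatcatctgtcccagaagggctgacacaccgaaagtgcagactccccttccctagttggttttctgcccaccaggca
Plin1, chr7:79732777-79732896, minus strand: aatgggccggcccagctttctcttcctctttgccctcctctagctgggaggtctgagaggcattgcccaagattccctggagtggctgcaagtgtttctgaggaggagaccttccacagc
Acly, chr11:100528001-100528120, minus strand: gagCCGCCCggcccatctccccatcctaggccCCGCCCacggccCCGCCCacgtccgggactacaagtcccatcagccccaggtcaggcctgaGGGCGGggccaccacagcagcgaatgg
Atp5b, chr10:128083187-128083306, plus strand: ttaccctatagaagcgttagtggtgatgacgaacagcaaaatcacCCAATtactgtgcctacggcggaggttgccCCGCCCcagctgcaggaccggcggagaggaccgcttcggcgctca
Cat, chr2:103485154-103485273, minus strand: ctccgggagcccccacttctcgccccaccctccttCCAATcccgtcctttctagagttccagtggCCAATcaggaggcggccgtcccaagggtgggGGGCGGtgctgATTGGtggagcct

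Adipoq and Retn have no CG in these bases, and Cfd and Plin1 have 1 each. Acly has 9, Atp5b has 10 and Cat has 6. All 7 genes were nevertheless far above background, Plin1 with the lowest mean at 9.32 ± 0.10 log2 and Retn with the highest at 12.58 ± 0.03.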

How the data were processed

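The deposited log2 values of all arrays were made by the authors with RMA in Affymetrix Expression Console 1.41, per the submitters' processing notes. The annotation was NetAffx build 34 on mm10, per the file headers. Both deposited tables held the same values (largest difference 0 over 41345 rows). Standard RMA gives all arrays 1 shared distribution of probe values, which would hide differences in total RNA. The 3 PBS arrays were grouped by title and used alone; the number of arrays limits the precision.

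Here the cluster with the highest mean was kept per symbol, and 1717 symbols whose every cluster matches several transcripts were left out. Through Entrez identifiers 22521 genes (88.1%) matched RefSeq GRCm38.p6. Levels were set against the antigenomic sets of the same array (Python 3.11.15, pandas 2.3.3). As an alternative, limma 3.58.1 in R 4.3.3 tested each gene minus that level, one-sided, with Benjamini-Hochberg adjustment over all genes at 0.05, after a check on simulated data.

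The members and the 43 lists were chosen with earlier results of these data known. Besides 27 genes named whatever their values, the 20 brightest genes, each list's 4 highest and up to 3 lowest members, the 15 above background with the largest range, and the marker genes above background or defining a type are named; predicted, small RNA and receptor segment genes are left to family counts. A few genes that this rule names are not reported here. Alternatives were the background measure, the arrays required, the cluster rule, centring, limma and leaving out each array. Clusters that cover less than 10% of their gene were left out in an alternative chosen after seeing the data.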

Additional observations from a re-analysis of the deposited data

Results flagged for a closer look

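Clusters without a gene symbol were used in no count of genes. Of 2497 such clusters with specific probes, 36 (1.44%) were above background in all 3 PBS arrays. The brightest lay on the mitochondrial genome (chrM:2676-2750) at 12.73, 12.70 and 12.67 log2. Of the 36, 15 lay over small nucleolar RNA genes of RefSeq, and 14 of these 15 were lowest in array 2.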

How the results depend on the processing

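The line for background decides the counts. Against the antigenomic mean, 14921 genes and 853 of 971 measured list genes were above, in place of 4119 and 506; against the 95th percentile of the intron sets, 6495 genes were. By limma 3697 genes passed, 3694 of them shared with the main count; it gave 14683 against the mean and 6274 against the intron sets, and 3456 to 3682 without 1 array. Leaving out 1 array gave 4120 to 4336 genes and 506 to 518 list genes above background. The other alternatives changed these counts by less than 1.5 times. The brightest 10% and 1% held 2559 and 256 genes, by construction, and 117 list genes lay in the brightest 1%. Genes with a range of 1 log2 or more numbered 6, 41 with no filter, 43 at 1.5-fold, and 1 to 6 without 1 array, the lowest without array 2 (3 without array 3). With clusters over at least 10% of their gene, chosen after seeing the data, 3969 genes were above. Among the 43 lists, 24 moved by more than 1.5 times against the antigenomic mean and 6 against the intron sets. No paired analysis was possible because only 1 group was used and the counts come from no comparison. Few arrays and single clusters limit every level.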
